A study of Homo sapiens with 20 samples.

Results

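Azurophil granules, also called primary granules, are the first granules that neutrophil precursors fill, and 8 genes for their cargo are described here: MPO, ELANE, PRTN3, AZU1, CTSG, DEFA3, DEFA4 and BPI. The genes were chosen by name, and all 8 had a row among the 28051 named genes of the RNAseq data. Of 8286 ATACseq regions, 5 list at least 1 of these genes, and they name 4 of the genes (AZU1, PRTN3, DEFA4 and BPI).

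HL60, a widely used human leukaemia (AML) line, stands close to the promyelocyte, the stage that makes azurophil granules, and matures towards neutrophils under all-trans retinoic acid (ATRA). The cells were Cas9 control cells, which express Cas9, and HK3-null cells, in which hexokinase 3 had been targeted with a lentiviral Cas9 vector. Each genotype received 1 µM ATRA or 0.01% DMSO, the solvent, for 36 h. RNAseq had 3 replicates in each of the 4 groups (12 libraries), and ATACseq had 2 (8 libraries). The HK3-null titles all carry a single knockout label, so the replicates may come from 1 clone, clone and genotype cannot be told apart, and p values measure the spread between cultures.

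Promyelocytes make myeloperoxidase and the serine proteases first, and these proteins are packed into granules with the proteoglycan serglycin after the protease CTSC has trimmed the proteases to their active form. Alpha-defensins and BPI follow towards the end of the same stage, before the cell turns to the proteins of the later granules. C/EBP factors, PU.1 and MYB are known activators of several of these genes.

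RefSeq promoter sequences (GRCh38.p14) matched 3 of the 8 genes. All 3, CTSG, AZU1 and PRTN3, are shown, since no other of the 8 genes had a sequence. CTSG RNA fell most of the 8 with ATRA, and AZU1 and PRTN3 flank the ATACseq region described further on. Each line holds the 250 bases before the gene start, read 5′ to 3′ on the strand of the gene. Capitals mark matches on either strand to the C/EBP motif TTNNGNAA, the PU.1 motif AGGAAGT and the MYB motif AACNG.
CTSG, chr14:24576251-24576500, minus strand: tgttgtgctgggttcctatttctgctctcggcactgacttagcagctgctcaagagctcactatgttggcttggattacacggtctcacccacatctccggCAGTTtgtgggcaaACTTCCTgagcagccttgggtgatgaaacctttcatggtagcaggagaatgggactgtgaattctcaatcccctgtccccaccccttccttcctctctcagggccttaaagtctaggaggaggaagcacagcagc
AZU1, chr19:827587-827836, plus strand: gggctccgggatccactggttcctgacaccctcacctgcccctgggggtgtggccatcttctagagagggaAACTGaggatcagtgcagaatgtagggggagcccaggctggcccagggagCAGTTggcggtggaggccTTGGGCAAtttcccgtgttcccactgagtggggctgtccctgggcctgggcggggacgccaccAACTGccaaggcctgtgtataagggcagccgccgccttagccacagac
PRTN3, chr19:840749-840998, plus strand: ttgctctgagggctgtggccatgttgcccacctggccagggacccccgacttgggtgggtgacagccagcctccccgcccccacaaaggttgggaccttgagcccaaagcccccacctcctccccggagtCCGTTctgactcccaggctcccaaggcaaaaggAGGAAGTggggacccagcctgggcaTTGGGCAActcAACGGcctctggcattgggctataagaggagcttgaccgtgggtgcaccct

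The C/EBP match of AZU1 and that of PRTN3 have the same letters, TTGGGCAA, and begin 111 and 62 bases before the gene start. The CTSG window had no C/EBP match. PU.1 matches stood in the PRTN3 and CTSG windows, 87 and 135 bases before the start, and MYB matches in all 3 windows. No match overlapped another. Among 35116 promoters of the table, 33.2% held the C/EBP motif, 7.01% the PU.1 motif and 70.6% the MYB motif in a window of this length, so a MYB match was common. The retinoic acid response element known as DR5, a direct repeat of AGGTCA with 5 bases between, was in 0 of the 3 windows and in 0.00285% of all promoters. These matches describe letters and not binding.

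Depth was estimated at 22700000 to 37000000 counts per RNAseq library, and normalized counts summed to 29053838 to 31548189. HK3, the targeted gene, stood at 65 to 105 normalized counts in Cas9 control and 302 to 346 in HK3-null libraries in DMSO. In ATRA it stood at 1298 to 1850 and 1285 to 1975, so the libraries labelled HK3-null did not have less HK3 RNA, and HK3-null is used here as a label. For their knockout clones the authors reported insertions or deletions at the cut site and no HK3 protein by mass spectrometry, which RNA counts do not measure. For HL60 that protein measurement was made on pooled clones, before and after vitamin D treatment rather than in ATRA. Before treatment it found no HK3 in control cells either. Markers of myeloid identity were present (8 of 8, summed counts 28248 to 79005), though CD38, also an ATRA response marker, had 4 to 6 counts in Cas9 control DMSO. The 10 ATRA response markers summed to 1125 to 1425 in Cas9 control DMSO and 11231 to 12051 in Cas9 control ATRA. In HK3-null cells the sums were 1785 to 2064 in DMSO and 45677 to 53213 in ATRA, there mostly TGM2. CYP26B1 had 0 counts in Cas9 control ATRA. Of other cell types, globin genes, CD3 genes and PF4 had at most 12 counts in any library, and 11 erythroid and 11 lymphoid markers summed to 107 to 425 and 264 to 1360. The summed counts of 7 eosinophil markers were 7266 to 8181 in Cas9 control DMSO, 516 to 647 in Cas9 control ATRA, 163492 to 171197 in HK3-null DMSO and 43849 to 52748 in HK3-null ATRA. PRG2, which encodes eosinophil major basic protein and is known in promyelocytes too, made up nearly all of that sum in DMSO. The 6 monocyte markers summed to 8042 to 8838, 1971 to 2064, 45392 to 47273 and 26122 to 29257 in the same order, mostly LYZ. The eosinophil and monocyte sums moved with the genotype, as did the ATRA response sum in ATRA, and their part in the results below was not tested. Bulk RNA cannot tell fewer cells that express a gene from less RNA per cell.

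MPO encodes myeloperoxidase, the heme enzyme that makes hypochlorous acid in the phagosome. It lies on the minus strand at chr17:58269855-58280935 and had the highest count of any gene in all 12 libraries. Its normalized counts in Cas9 control cells were 656074, 616910 and 631840 in DMSO and 484185, 467401 and 440811 in ATRA. In HK3-null cells they were 661371, 651904 and 588140 in DMSO and 557573, 531091 and 449325 in ATRA. The ATRA libraries lay below the DMSO libraries in each genotype without overlap, while the genotypes overlapped in each treatment. MPO fell with ATRA by 0.45 on the log2 scale in Cas9 control (SE 0.08, adjusted p = 0.000861, limma) and by 0.31 in HK3-null (SE 0.08, adjusted p = 0.00777). All log2 fold changes of RNA here are of normalized count + 1. Between genotypes it did not pass the test, at 0.00 in DMSO (95% interval −0.19 to 0.18) and 0.14 in ATRA (−0.04 to 0.32, adjusted p = 0.169). Without HK3-null ATRA replicate 3 the latter was 0.23 and passed (adjusted p = 0.00759, against 0.169 with all libraries).

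The serine protease genes ELANE, PRTN3 and AZU1 sit side by side on the plus strand of chromosome 19. AZU1 spans chr19:827837-832018, PRTN3 chr19:840999-848175 and ELANE chr19:852303-856243. Although neighbours, they did not change alike. ELANE, the gene of neutrophil elastase, fell with ATRA and was higher in HK3-null cells, AZU1 fell with ATRA and was lower in HK3-null cells, and PRTN3 passed no test.

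ELANE had 24587, 22165 and 23584 normalized counts in Cas9 control DMSO and 11631, 11030 and 10204 in Cas9 control ATRA. In HK3-null cells the counts were 32680, 30676 and 29903 in DMSO and 19253, 17907 and 15766 in ATRA. The 4 groups did not overlap, and HK3-null DMSO was highest. The log2 fold change with ATRA was −1.10 in Cas9 control (SE 0.08, adjusted p = 2.27e-07) and −0.82 in HK3-null (SE 0.08, adjusted p = 1.91e-06). HK3-null exceeded Cas9 control by a log2 fold change of 0.41 in DMSO (adjusted p = 0.000566) and 0.68 in ATRA (adjusted p = 6.16e-06).

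PRTN3 encodes proteinase 3, an elastase relative and a target of autoantibodies in vasculitis. Its counts were 97953, 82266 and 94171 in Cas9 control DMSO and 92586, 83854 and 76693 in Cas9 control ATRA. They were 104309, 95354 and 92849 in HK3-null DMSO and 98443, 90775 and 79271 in HK3-null ATRA. The 4 groups overlapped, and the 4 log2 fold changes lay between −0.13 and 0.09, each with an SE of 0.10. Their 95% intervals lay between −0.34 and 0.30, and smaller changes were not detectable with 3 replicates.

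AZU1 encodes azurocidin, an antimicrobial relative of elastase that has lost protease activity. Its counts were 16069, 14919 and 16331 in Cas9 control DMSO and 13313, 12712 and 12587 in Cas9 control ATRA. They were 13571, 11604 and 11111 in HK3-null DMSO and 10718, 9941 and 8990 in HK3-null ATRA. AZU1 fell with ATRA by a log2 fold change of −0.29 in each genotype (SE 0.08, adjusted p = 0.0106 in Cas9 control and 0.00909 in HK3-null), and the difference between these responses had a 95% interval of −0.24 to 0.25. It was lower in HK3-null than in Cas9 control cells, by −0.39 in DMSO (adjusted p = 0.0012) and −0.38 in ATRA (adjusted p = 0.00112).

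CTSG, on chromosome 14 (chr14:24573518-24576250, minus strand), encodes cathepsin G, a protease with chymotrypsin-like specificity, and was the gene with the most negative log2 fold change of the 8 in each of the 4 comparisons. Counts were 12456, 11535 and 11804 in Cas9 control DMSO and 2173, 1816 and 1728 in Cas9 control ATRA. They were 3561, 3416 and 3407 in HK3-null DMSO and 775, 785 and 648 in HK3-null ATRA. The groups did not overlap, and HK3-null cells in DMSO already lay far below Cas9 control cells in DMSO. The log2 fold change with ATRA was −2.65 in Cas9 control (SE 0.09, adjusted p = 2.83e-10) and −2.24 in HK3-null (SE 0.09, adjusted p = 1.31e-09). Between genotypes it was −1.78 in DMSO (SE 0.09, adjusted p = 7.01e-09) and −1.37 in ATRA (adjusted p = 6.06e-08).

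**Figure D1:**
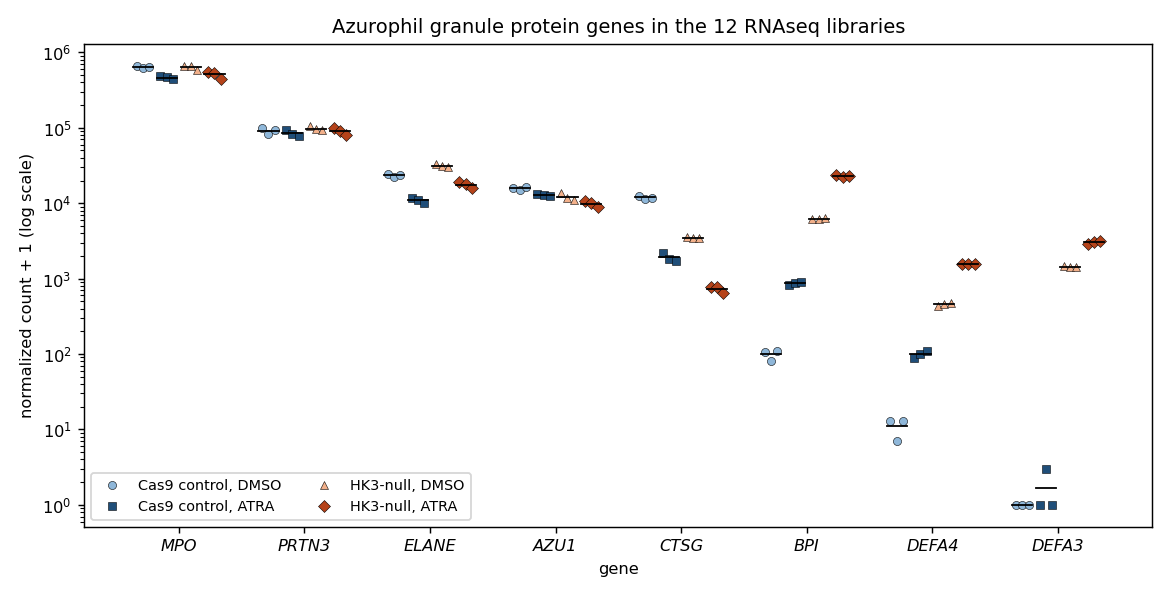
Normalized counts + 1 on a log axis of the 8 azurophil granule protein genes in the 12 RNAseq libraries, with 1 point per library and a line at the mean of each group of 3. MPO tops every group, PRTN3 hardly moves, CTSG steps down with ATRA and in HK3-null cells, and BPI, DEFA4 and DEFA3 step up, from 0 counts of DEFA3 in all 3 Cas9 control DMSO libraries to 2865 or more in HK3-null ATRA.

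BPI and the alpha-defensin genes were far higher in HK3-null than in Cas9 control cells, and BPI and DEFA4 rose with ATRA in both. BPI encodes the bactericidal/permeability-increasing protein, which binds the lipopolysaccharide of Gram-negative bacteria, and lies at chr20:38304156-38337505 on the plus strand. It had 107, 80 and 108 normalized counts in Cas9 control DMSO and 824, 869 and 904 in Cas9 control ATRA. HK3-null cells had 6250, 6206 and 6270 in DMSO and 23838, 22450 and 23187 in ATRA. The groups were far apart, and HK3-null cells without ATRA exceeded Cas9 control cells with it. BPI rose with ATRA by a log2 fold change of 3.14 in Cas9 control (SE 0.10, adjusted p = 1.13e-10) and 1.89 in HK3-null (SE 0.10, adjusted p = 8.61e-09). It was higher in HK3-null by 5.99 in DMSO (SE 0.10, adjusted p = 3.85e-13) and 4.74 in ATRA (adjusted p = 4.54e-12).

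DEFA4 encodes an alpha-defensin, a small peptide that disrupts microbial membranes, and lies at chr8:6935820-6938306 on the minus strand. It had 12, 6 and 12 counts in Cas9 control DMSO and 87, 98 and 108 in Cas9 control ATRA. HK3-null cells had 438, 459 and 480 in DMSO and 1573, 1572 and 1571 in ATRA. The order of the groups was that of BPI, without overlap. The log2 fold change with ATRA was 3.22 in Cas9 control (SE 0.20, adjusted p = 9.65e-08) and 1.77 in HK3-null (SE 0.20, adjusted p = 1.16e-05). Between genotypes it was 5.44 in DMSO (adjusted p = 4.62e-10) and 4 in ATRA (adjusted p = 6.22e-09).

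DEFA3, another alpha-defensin gene (chr8:7015869-7018297, minus strand), was found in HK3-null libraries and hardly in the Cas9 control. Its counts were 0, 0 and 0 in Cas9 control DMSO and 0, 2 and 0 in Cas9 control ATRA, against 1464, 1421 and 1430 in HK3-null DMSO and 2865, 3084 and 3132 in HK3-null ATRA. A count of 0 allows up to 3 counts, which after scaling is 2.48 to 3.21 in the Cas9 control DMSO libraries, so DEFA3 was at least 448-fold higher in HK3-null DMSO. In ATRA the ratio was 4173, with a counting interval of 1160 to 34455 from the 2 reads. The interval covers counting error only. DEFA3 rose with ATRA in HK3-null cells by 1.07 (SE 0.33, adjusted p = 0.0172), which did not pass with 0 kept as the log2 of 0.001 (adjusted p = 0.725, the highest of a range from 3.72e-06), and the response in Cas9 control cells was not detectable at this depth.

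DEFA3 and DEFA1 are near-identical copies: the DEFA3 transcript of the GENCODE annotation differs from DEFA1 at 2 of 494 aligned bases. Reads of the copies may have been assigned to DEFA3, so its count is uncertain as to the gene. DEFA1, DEFA1B and DEFA5 had between 0 and 2 counts in every library and DEFA6 at most 5. The pseudogene DEFA8P, next to DEFA4, had 3 to 17 counts in Cas9 control and 31 to 154 in HK3-null libraries. Tested genes of chromosome 8 were higher as a whole in HK3-null cells, with a median log2 fold change of 1.09 in DMSO and 1.05 in ATRA. With that median subtracted, DEFA4 still exceeded Cas9 control by 4.35 and 2.95, and the fitted DEFA3 values by 9.40 and 9.98. The medians of chromosomes 14, 17, 19 and 20, where the other genes lie, were between −0.01 and 0.12.

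**Figure D2:**
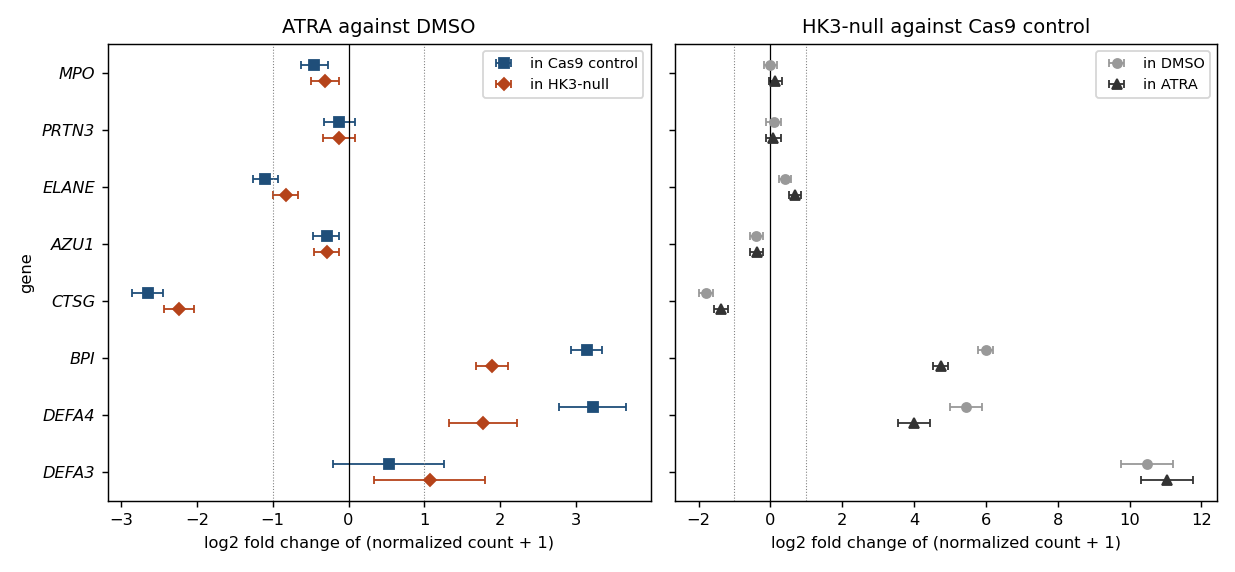
Log2 fold change of normalized count + 1 for each gene, with 95% intervals from limma over 12 libraries (3 per group). The left panel shows ATRA against DMSO in each genotype and the right panel HK3-null against Cas9 control in each treatment, with dotted lines at a fold change of 2. MPO, PRTN3 and AZU1 stay within the dotted lines, CTSG lies left of them in all 4 comparisons (−2.65 to −1.37), and BPI and DEFA4 lie right of them, while the DEFA3 values against Cas9 control rest on counts of 0 to 2.

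Genes with an adjusted p under 0.05 that also differed at least 2-fold were called. With ATRA in Cas9 control cells 4 of the 8 genes were called, 2 lower (ELANE, CTSG) and 2 higher (DEFA4, BPI), where 10.4% of the 13256 tested genes were called, 3.18% lower and 7.26% higher. With ATRA in HK3-null cells 4 were called, CTSG lower and DEFA3, DEFA4 and BPI higher, against 15.3% of tested genes (6.51% lower, 8.83% higher). Between genotypes in DMSO 4 were called, CTSG lower and DEFA3, DEFA4 and BPI higher, against 20.3% of tested genes (8.74% lower, 11.5% higher). Between genotypes in ATRA the calls were again CTSG lower and DEFA3, DEFA4 and BPI higher, against 23% of tested genes (10.6% lower, 12.4% higher). The comparisons share libraries, so they are not independent of each other. At any fold, 6 of the 8 genes passed with ATRA in Cas9 control (43.1% of tested genes did), 7 in HK3-null (51.1%), 6 between genotypes in DMSO (56.7%) and 6 in ATRA (61.6%). The 3 libraries of each group did not overlap for 6, 7, 6 and 6 of the 8 genes in the same order, and for 51.3%, 58.6%, 63.8% and 63.4% of tested genes. All 8 genes passed the filter on low values, DEFA3 through the HK3-null groups alone. The median log2 fold change of the 8 genes was −0.20, −0.21, 0.25 and 0.41 in these comparisons, with a median over all tested genes between 0.00 and 0.01.

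The ATRA response itself differed between genotypes for BPI and DEFA4. The interaction of genotype and treatment was −1.25 for BPI (SE 0.14, adjusted p = 0.000137) and −1.44 for DEFA4 (SE 0.29, adjusted p = 0.00702), that is, a smaller log2 rise in HK3-null cells, which began from a higher level. These were 2 of 8 genes, both lower, where 9.97% of tested genes had an adjusted p under 0.05 (5.18% lower). Replicate numbers paired the RNAseq libraries, and with the replicate number as a block 4 of the 8 passed: ELANE (0.28, adjusted p = 0.00991) and CTSG (0.42, adjusted p = 0.0037) were added, each with a smaller fall in HK3-null cells. With the block 3182 of the 13256 tested genes passed, against 1321 without it. Without the block ELANE had an adjusted p of 0.142 and CTSG of 0.0629. Leaving out HK3-null ATRA replicate 3 also brought both past the threshold (0.36, adjusted p = 0.0304, and 0.50, adjusted p = 0.0174), and CTSG passed without Cas9 control ATRA replicate 1 (0.51, adjusted p = 0.0157). For DEFA3 the interaction was 0.54 (adjusted p = 0.565), and 1.07 (adjusted p = 0.00932) without Cas9 control ATRA replicate 2, the only Cas9 control library with DEFA3 reads. With a pseudocount of 10 it was 0.98 and passed (adjusted p = 0.00118), and on the deposited scale it was −2.58 (adjusted p = 0.71), so neither its size nor its call was stable. The DEFA4 interaction also depended on the pseudocount, at −0.68 (adjusted p = 0.0336) with 10, since Cas9 control DMSO held 6 to 12 counts.

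Per kilobase of exon, the order of levels in Cas9 control DMSO was MPO (197432 normalized counts per kb), PRTN3 (82622), ELANE (22806), CTSG (13055), AZU1 (8851), BPI (50.8), DEFA4 (17) and DEFA3 (0), and no neighbours in that order overlapped. In HK3-null ATRA it was MPO (159410), PRTN3 (80846), ELANE (17161), BPI (11962), DEFA3 (6128), AZU1 (5546), DEFA4 (2678) and CTSG (805). There DEFA3 and AZU1 overlapped and did not differ beyond their spread. MPO, PRTN3 and ELANE held the first places in all 4 groups, and CTSG moved from the middle of the order to its end.

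The 8 genes held 2.51% ± 0.111 of all normalized counts in Cas9 control DMSO and 1.92% ± 0.0509 in Cas9 control ATRA (SD, n = 3, exact two-sided permutation p = 0.1). They held 2.61% ± 0.117 in HK3-null DMSO and 2.12% ± 0.159 in HK3-null ATRA (SD, n = 3, exact permutation p = 0.1). With 3 against 3 libraries 0.1 is the smallest p this test can give. MPO made up most of each share, at 1.51% to 2.17% of all counts. The shares of the genotypes overlapped in both treatments (exact permutation p = 0.4 in DMSO and 0.2 in ATRA). With same-numbered libraries as pairs, HK3-null exceeded Cas9 control in 2 of 3 pairs in DMSO (exact paired permutation p = 0.5) and in 3 of 3 in ATRA (p = 0.25, the smallest that 3 pairs can give), by 0.206 percentage points on average.

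Over the 12 libraries, BPI and DEFA4 had a Pearson r of 0.997 on log2 counts, AZU1 and CTSG 0.893, and MPO and ELANE 0.91, while AZU1 and BPI had −0.911. These values mostly describe the 4 group means. Of 10658 other genes with a mean of at least 50 counts, PADI4, which encodes the enzyme that citrullinates histones in neutrophils, was the most like BPI (r = 0.998) and among the 3 most like DEFA4 (0.997). Its group means were 20.3 in Cas9 control DMSO, 199 in Cas9 control ATRA, 1176 in HK3-null DMSO and 3878 in HK3-null ATRA. RXRA, the partner of the retinoic acid receptor, was among the 3 most like ELANE (r = 0.993), with CECR5 (0.996) and CST7 (0.991), which encodes cystatin F, an inhibitor of cathepsins. TUBA1B was most like MPO (0.981), MED24 most like AZU1 (0.985), CDR2 most like CTSG (0.992) and NXF3 most like DEFA3 (0.997). PRTN3 had no gene above 0.893 (PMS2P5).

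Of 18 genes for granule processing and packing, 17 were tested, and 1 was called with ATRA in each genotype: CALR, a chaperone known to bind the MPO precursor, was lower by −1.32 in Cas9 control and −1.44 in HK3-null cells. Of all tested genes 10.4% and 15.3% were called in these comparisons. Between genotypes 2 of the 17 were called in DMSO, both lower (PDIA3, −1.17, and UNC13D, −1.11), against 20.3% of all tested genes. In ATRA 0 were called (limma), against 23% of all tested genes. At any fold 11 passed as higher and 4 as lower in ATRA, where 61.6% of all tested genes passed. The interaction passed for 7 of the 17, 6 of them positive, against 9.97% of all tested genes. The largest were the chaperone HSPA5 (1.10, adjusted p = 4.13e-06), serglycin (SRGN, 0.79, adjusted p = 0.00037) and PDIA3 (0.46, adjusted p = 0.0121). CTSC, which activates the granule proteases, had −0.14 and 0.04 with ATRA and 0.02 and 0.21 between genotypes, of which the last passed (adjusted p = 0.0296).

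Of 12 inhibitors of granule proteases 8 were tested. With ATRA in Cas9 control 2 were called higher and 3 lower, where 7.26% and 3.18% of all tested genes were. SERPINB10 fell by 3.36 and CST7 by 2.02, while SERPINB6, an inhibitor of cathepsin G, rose by 2.13. SERPINB1, the inhibitor of elastase, proteinase 3 and cathepsin G in the cytosol, rose by 1.91 (adjusted p = 3.16e-10). Between genotypes in DMSO 4 were higher in HK3-null cells and 2 lower, where 11.5% and 8.74% of all tested genes were. The largest differences were those of SERPINB6 (6.30), alpha-1 antitrypsin, SERPINA1 (2.02), and SERPINB1 (1.76). SERPINB6 had 28, 4 and 7 counts in Cas9 control DMSO, so both of its changes rest on low counts.

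Of 34 further proteins of primary granules 31 were tested. With ATRA 7 were called higher and 3 lower in Cas9 control (7.26% and 3.18% of all tested genes), led by CD68 (2.77), CTSZ (2.35) and lysozyme, LYZ (−2.31), and 8 higher and 2 lower in HK3-null (8.83% and 6.51%), led by cathepsin D, CTSD (3.34), GRN (2.61) and FUCA1 (2.23). Between genotypes 8 were called higher and 1 lower in DMSO (11.5% and 8.74% of all tested genes), led by CD68 (2.96), LYZ (2.45) and PRSS57 (−2.23). In ATRA the calls were 16 higher and 1 lower (12.4% and 10.6%), led by LYZ (4.02), CTSD (2.49) and GRN (2.41). The interaction passed for 14 with a positive and 3 with a negative sign, against 9.97% of all tested genes, with RNASE3 (1.62), LYZ (1.57) and CTSD (1.41) the largest. PRSS57, a granule serine protease of chromosome 19, also fell with ATRA, with log2 fold changes of −1.67 in Cas9 control and −1.82 in HK3-null cells.

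Of 21 granule proteins made later in neutrophil maturation 19 were tested, but 10 of these passed the filter on low values only through the HK3-null groups, where they had to be higher, so the counts and medians between genotypes are in part set by the filter. In DMSO 18 of the 19 were called higher in HK3-null cells, and in ATRA 17, where 11.5% and 12.4% of all tested genes were. Of the 9 that passed the filter in a Cas9 control group, 8 were called higher in DMSO and 7 in ATRA. Among the 10 others, FCN1, ficolin, averaged 3.33 counts in Cas9 control DMSO and 456 in HK3-null DMSO, ARG1, arginase, 1 and 244, and lactoferrin (LTF) 0.333 and 64. In ATRA, PGLYRP1 averaged 1 count in Cas9 control and 85 in HK3-null cells. With ATRA in Cas9 control 10 of the 19 were called higher and 1 lower (7.26% and 3.18% of all tested genes), led by ITGAM (5.41), CYBB (4.77), the phagocyte oxidase subunit, and ORM1 (2.45). Of the 9 that passed the filter in a Cas9 control group, 7 were called higher and 1 lower. The other calls, MMP8, OLFM4 and ARG1, averaged 2.33, 6.67 and 4.33 counts in Cas9 control ATRA, so they rest on low counts.

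**Figure D3:**
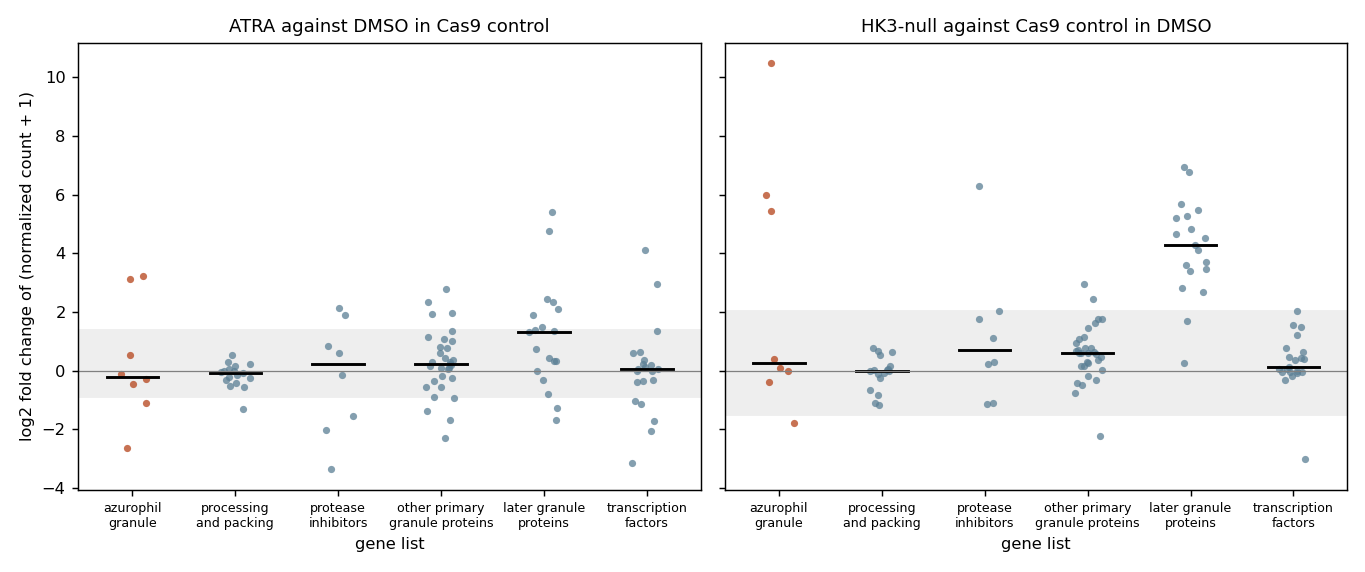
Log2 fold change of normalized count + 1 for the tested genes of each list (points) with its median (line), for ATRA against DMSO in Cas9 control (left) and HK3-null against Cas9 control in DMSO (right). The grey band spans the 5th to 95th percentile of all 13256 tested genes. The azurophil granule genes spread to both sides, whereas most later granule proteins lie above the band in the right panel, 10 of the 19 having passed the filter only through HK3-null groups.

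Among 24 transcription factors known from work on promyelocyte genes, 21 were tested. With ATRA in Cas9 control 3 were called higher and 5 lower (7.26% and 3.18% of all tested genes), and in HK3-null cells 4 and 4 (8.83% and 6.51%). The retinoic acid receptor gene RARB had 4.12 in Cas9 control and 5.21 in HK3-null, CEBPB 2.95 and 3.86, and GATA2 −3.15 and −3.84. RARB averaged 0.333 counts in Cas9 control DMSO and 0 in HK3-null DMSO, so the size of its change depends on the pseudocount. CEBPE, the C/EBP factor of late promyelocytes and myelocytes, rose by 1.37 and 1.27 (adjusted p = 1.19e-08 and 1.51e-08), and MYB fell by 1.15 and by 1.39 (adjusted p = 0.000141 and 1.75e-05). Between genotypes 4 were called higher and 1 lower in DMSO, against 20.3% of all tested genes (11.5% higher, 8.74% lower). The largest were HOXA10 (−3.01), EGR1 (2.03) and GATA2 (1.55). In ATRA 3 were called higher and 2 lower, against 23% of all tested genes (12.4% higher, 10.6% lower). There HOXA10 (−4.05), EGR1 (2.92) and IRF8 (−1.86) led. HOXA10 averaged 7 counts in HK3-null DMSO and 3 in HK3-null ATRA, so its sizes rest on low counts. CEBPA averaged 12573 counts in Cas9 control DMSO and 21530 in HK3-null DMSO, a log2 fold change of 0.78 (adjusted p = 2.87e-05), and SPI1, which encodes PU.1, was higher by 0.47 (adjusted p = 1.34e-05).

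Genes within 100 kb of the 8 genes were compared for changes of the locus. Around ELANE, PRTN3 and AZU1, 7 of 12 neighbours were tested and 0 were called in any of the 4 comparisons at a fold change of 2. At any fold, CFD, complement factor D, next to ELANE, rose with ATRA by 0.61 in Cas9 control (adjusted p = 2.05e-05) and 0.65 in HK3-null (adjusted p = 6.26e-06), against the fall of ELANE. PLPPR3, next to AZU1, fell by 0.49 and 0.50 (adjusted p = 0.000437 and 0.000241). Near MPO, TSPOAP1 averaged 17506 counts in Cas9 control DMSO and 505 in HK3-null DMSO (log2 fold change −5.11, adjusted p = 3.91e-12), and EPX, eosinophil peroxidase, averaged 3 and 618 (7.26, adjusted p = 7.76e-09), while MPO between them was at 0.00. EPX passed the filter on low values only through HK3-null groups, so its direction was in part set by the filter. The size of its difference rests on low counts in Cas9 control. The granzyme neighbours of CTSG, GZMB and GZMH, averaged under 1 count in every group, and its only tested neighbour, LOC101927045, was higher in HK3-null cells (1.12 in DMSO, adjusted p = 0.00011). Around DEFA3 and DEFA4, 3 of 12 neighbours were tested. All 3 were called higher in HK3-null DMSO, where 11.5% of all tested genes were. There DEFB1, a beta-defensin gene, averaged 0 counts in Cas9 control and 138 in HK3-null cells, DEFA8P 4.33 and 39.7, and DEFA9P 0 and 5. DEFB1 and DEFA9P passed the filter on low values only through HK3-null groups, so their direction was in part set by the filter. DEFA8P was higher by 2.94, without subtracting the median of 1.09 that was subtracted for DEFA4 above. Near BPI, its relative LBP averaged 3.33 to 7.33 counts, whereas KIAA1755 was called higher with ATRA and in HK3-null cells (3.12 in DMSO) and SNORA71D lower in HK3-null DMSO (−2.23, adjusted p = 0.000766).

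The ATACseq regions at the azurophil genes were read as signal, the density of fragments in a region. The region between AZU1 and PRTN3 (chr19:836420-837000) is intergenic, 8.87 kb downstream of the AZU1 start and 4.29 kb upstream of the PRTN3 start. The region in BPI (chr20:38317506-38317885), 13.54 kb past the BPI start, covers the first exon of a shorter annotated transcript. To show the bases behind the signal at AZU1, PRTN3 and BPI, the central 300 bases of the former and the first 142 bases of the latter, which end before that exon, are given on the plus strand of GRCh38, with motif matches in capitals as above.
AZU1-PRTN3 region, chr19:836561-836860: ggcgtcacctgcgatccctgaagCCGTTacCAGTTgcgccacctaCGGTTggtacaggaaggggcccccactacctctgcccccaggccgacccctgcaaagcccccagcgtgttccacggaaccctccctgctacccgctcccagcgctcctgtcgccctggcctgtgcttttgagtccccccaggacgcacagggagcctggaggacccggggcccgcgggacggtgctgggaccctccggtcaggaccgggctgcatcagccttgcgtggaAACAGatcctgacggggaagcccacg
BPI region, chr20:38317507-38317648: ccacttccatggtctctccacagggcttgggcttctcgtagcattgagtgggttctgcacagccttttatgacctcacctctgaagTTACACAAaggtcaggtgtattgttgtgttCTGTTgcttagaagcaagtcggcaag

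The AZU1-PRTN3 region held 4 MYB matches, 3 of them between positions 24 and 50, and no match to the C/EBP or PU.1 motif. A MYB match was in 82.1% of all 8286 regions over their central 300 bases. The BPI window held 1 C/EBP match (TTACACAA) and 1 MYB match, and 29.0% and 55.2% of regions held these over their first 142 bases.

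Signal in the AZU1-PRTN3 region was 98.3 and 107 in Cas9 control DMSO and 66.2 and 45.9 in Cas9 control ATRA. It was 53.1 and 46.8 in HK3-null DMSO and 14.2 and 17.6 in HK3-null ATRA. Cas9 control DMSO was highest and HK3-null ATRA lowest. The log2 fold change of signal + 1 with ATRA was −1.60 in HK3-null (SE 0.31, adjusted p = 0.000311), and this was 1 of 4 tested regions of the genes to be called, lower. Of all 6214 tested regions 16.8% were called (11.8% lower), with 1.5-fold as the smallest change counted. In Cas9 control it was −0.88 (SE 0.31, adjusted p = 0.0452), again 1 of 4 against 18.2% of regions (15.6% lower). Cas9 control ATRA replicate 2 had the lowest total signal, 244488 against 345345 to 390632 in the other libraries. Without it the change was −0.62 (adjusted p = 0.232) and the call was lost. Over all alternatives this adjusted p ranged from 0.0158 to 0.305, and it was 0.163 and 0.279 without Cas9 control DMSO replicate 1 and 2 and 0.09 and 0.089 without HK3-null DMSO replicate 1 and 2. AZU1 RNA was lower in the groups with less signal, whereas PRTN3 RNA passed no test.

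Between genotypes in DMSO the AZU1-PRTN3 region was lower in HK3-null cells by a log2 fold change of −1.02 (SE 0.31, adjusted p = 0.00339). This adjusted p was 0.0508 without HK3-null DMSO replicate 2. The BPI region had signal of 7.36 and 9.82 in Cas9 control DMSO, 5.09 and 3.82 in Cas9 control ATRA, 38.6 and 33.7 in HK3-null DMSO and 16.6 and 24.8 in HK3-null ATRA. It was higher in HK3-null DMSO by 1.96 (SE 0.43, adjusted p = 0.000135), as its RNA was. With ATRA it had −0.81 in Cas9 control and −0.80 in HK3-null (SE 0.43, adjusted p = 0.214 and 0.225), while BPI RNA rose.

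At DEFA4, the region 5.81 kb downstream of the gene start (chr8:6932348-6932653) had signal of 5.5 and 3.9 in Cas9 control DMSO, 4.4 and 5.9 in Cas9 control ATRA, 27.5 and 31.9 in HK3-null DMSO and 25.5 and 32.9 in HK3-null ATRA. The genotypes did not overlap, and the treatments did. It was higher in HK3-null DMSO by 2.44 (SE 0.44, adjusted p = 9.32e-06), and with ATRA it had 0.11 and −0.03. Over all alternatives, which include the chromosome median subtracted, this DMSO difference ranged from 1.31 to 2.64 (limma, adjusted p at most 0.0115). A region 9.56 kb downstream (chr8:6928530-6928956) had 31.1 and 41.3 in Cas9 control DMSO and 47.0 and 51.5 in HK3-null DMSO, a difference of 0.45 (SE 0.32, adjusted p = 0.184) that turned to −0.69 (adjusted p = 0.0673) with the chromosome median subtracted and to 0.65 (adjusted p = 0.0349) with quantile normalization. A region 1.30 kb upstream of DEFA4 (chr8:6939310-6939899) had a mean of 16.7 over all libraries, under the limit of 17.1 for testing. Its signal was 7.88 and 12.8 in Cas9 control DMSO, 16.1 and 7.22 in Cas9 control ATRA, 30.1 and 13.5 in HK3-null DMSO and 25.8 and 20.4 in HK3-null ATRA. HK3-null libraries lay above Cas9 control libraries in each treatment, and the treatments overlapped in each genotype.

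Between genotypes in DMSO, then, 3 of 4 tested regions of these genes were called, 2 higher and 1 lower, but 86.6% of all tested regions were (42.7% higher, 43.9% lower). All 8286 deposited regions differ by at least 1.65-fold between genotypes in ATRA, so they had been selected on that contrast, and no test of it is given. The same ATRA libraries enter the tests of ATRA against DMSO and of the interaction, so the selection bears on those p values too. It also bears on the separation of the genotypes in ATRA described above. The genotype tests in DMSO cover regions chosen for a difference between genotypes, so the selection bears on their p values and directions as well. The extent of this was not tested. The log2 fold changes in ATRA were −1.74 for the AZU1-PRTN3 region, 1.98 for the BPI region and 2.30 and 1.14 for the nearer and farther DEFA4 region. With the chromosome median subtracted they were −2.96, 0.97, 0.99 and −0.17. The interaction passed for 0 of the 4 regions (limma), with unadjusted p of 0.115 or more, against 0.274% of tested regions.

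**Figure D4:**
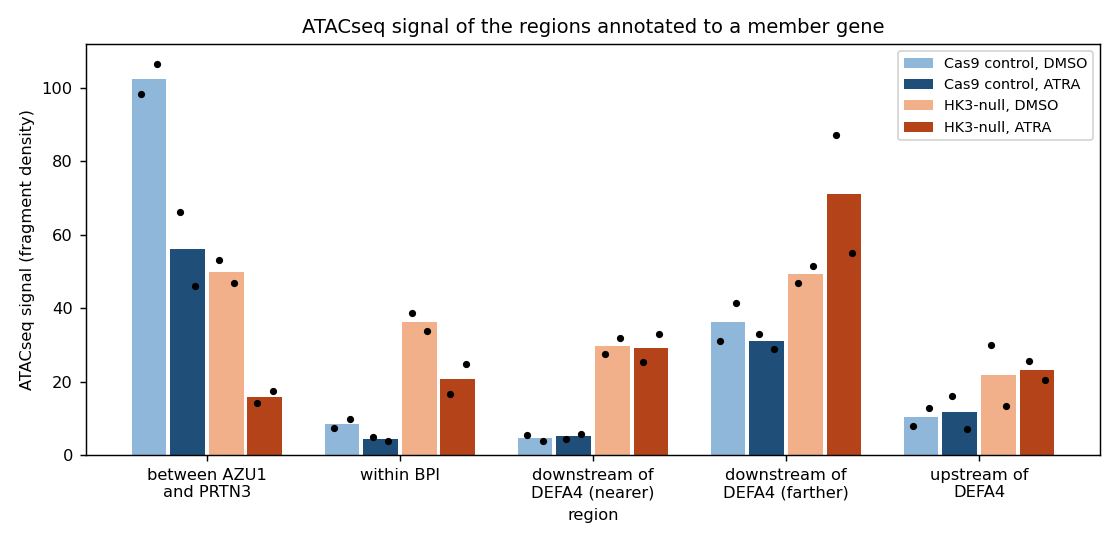
ATACseq signal (fragment density) of the 5 regions annotated to an azurophil granule gene, with bars at the mean of 2 libraries and a point per library. The region between AZU1 and PRTN3 falls from a mean of 102 in Cas9 control DMSO to 15.9 in HK3-null ATRA, while the region within BPI and the nearer region downstream of DEFA4 are higher in HK3-null cells.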

How the data were processed

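HL60 cells of 4 groups were analysed from 12 RNAseq and 8 ATACseq libraries. For RNAseq, the authors mapped reads to GRCh38, and the deposited log2 values are the log2 of a scaled, whole count, with 0 written as the log2 of 0.001. The methods describe RPKM, but no scaling by gene length was visible. The authors' deposited processing notes name DESeq2. For RNAseq, no source used here gives the aligner or the counter. Powers of 2 of these values, rounded to whole numbers, are called normalized counts, and counts before scaling were not used here. Depth was estimated from the gaps and doublings that scaling leaves among low whole numbers. Rows without a gene name (330 of 28381) held at most 0.00926% of counts and were left out. For ATACseq, the deposited signal is the fragment density that the authors computed per merged MACS2 region after reducing libraries to equal tag numbers, and its depth is unknown.

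R 4.3.3 with limma 3.58.1 (lmFit, eBayes with trend) was fitted to log2(normalized count + 1) in 1 model with 4 group means, over the 13256 genes that averaged above 3 on the log2 scale in at least 1 group. ATACseq used log2(signal + 1) over the 6214 regions averaging more than 17.1 (25th percentile). P values were adjusted over all tested genes or regions by Benjamini-Hochberg. The script was tested on simulated data. Deviations from group means correlated at 0.178 to 0.631 in all 18 pairs of RNAseq libraries of the same replicate number, so the numbers were taken to pair them. ATACseq pairs had −0.209 to 0.054 and were not taken as paired. Genes, lists and markers were chosen with earlier results of these data known: the 3 called genes of largest change were named for each comparison described per list, with further genes named for their role after their values were seen, and for likeness the 3 genes of highest r. Alternatives changed the value for 0, the pseudocount, filter, normalization, pairing, fitted groups, call rule and chromosome median, and left out each replicate.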

Additional observations from a re-analysis of the deposited data

Results flagged for a closer look

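The response to ATRA differed between genotypes for 2 of the 8 genes by the interaction test without the replicate block, and for 4 with it. For BPI, the log2 response in HK3-null minus that in Cas9 control cells was −1.25, and limma gave an adjusted p of 0.000137 (between 3.04e-06 and 0.000805 across 21 alternatives). On the count scale, BPI gained more in HK3-null cells, from a mean of 6242 to 23158, than in Cas9 control cells, from 98.3 to 866. For DEFA4 the difference was −1.44 (adjusted p = 0.00702, range 0.000847 to 0.0336, the value itself between −1.59 and −0.68, the latter with a pseudocount of 10), with means of 10 and 97.7 in Cas9 control cells and 459 and 1572 in HK3-null cells. All 3 ATRA libraries exceeded all 3 DMSO libraries in each genotype for both genes.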

How the results depend on the processing

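The numbers of the 8 genes called in the 4 pairwise RNAseq comparisons stayed within 3 to 5 of the main 4 under every alternative run. With the replicate block the interaction passed for 4 genes instead of 2 and for 3182 instead of 1321 of all tested genes, and the block changed no other RNAseq call of the 8 genes. At an unadjusted p under 0.05 and any fold change the interaction count was 4, with ELANE at 1.21-fold and CTSG at 1.33-fold. The interaction count was 2 to 4 without 1 replicate. It reached 4 without HK3-null ATRA replicate 3. The paired test of the shares of counts was chosen after seeing the data and left each difference as it was. In ATACseq, the AZU1-PRTN3 call with ATRA in Cas9 control (1 region) became 0 with no filter, with quantile normalization, with the replicate block and with the chromosome median subtracted, and ranged from 0 to 1 without 1 replicate. The call was lost without Cas9 control ATRA replicate 2 and also without any 1 of the Cas9 control DMSO or HK3-null DMSO libraries. With crossed numbers of the Cas9 control DMSO libraries, a pairing chosen after seeing the data, 1 region was called. The median of the regions between genotypes in ATRA, 1.56, became 1.14 with no filter and 0.40 with the chromosome median subtracted.

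Directions changed for values near 0 or resting on zeros. The DEFA3 interaction (0.54) was −2.58 on the deposited scale for 0 and 0.98, past the threshold, with a pseudocount of 10, and the rise of DEFA3 with ATRA in HK3-null cells no longer passed there (1.07). The DEFA3 response in Cas9 control was 0.00 to 0.79 without 1 replicate. Quantile normalization sets MPO to 0.00 in every comparison because it is the highest gene of each library, and scaling to equal totals put its DMSO genotype difference at 0.04 (without 1 replicate, −0.04 to 0.05). The MPO fall in HK3-null cells did not pass in a fit of those 2 groups alone, and the AZU1 fall in Cas9 control did not pass under quantile normalization (−0.13). The AZU1 interaction was −0.21 under quantile normalization, −0.08 with equal totals and −0.06 to 0.09 without 1 replicate, and that of PRTN3 was −0.08 to 0.07. PRTN3 between genotypes in ATRA was −0.04 with the chromosome median subtracted. The farther DEFA4 region had 0.13 with quantile normalization and 0.02 with the chromosome median subtracted for ATRA in Cas9 control, and with that median −0.69 and −0.17 between genotypes in DMSO and ATRA, while quantile normalization put the former at 0.65, past the threshold, so that all 4 regions were called. The nearer DEFA4 region with ATRA in HK3-null had 0.16 and 0.03 under the same settings and −0.21 to 0.15 without 1 replicate, and in Cas9 control −0.09 to 0.32. The cause of these changes was otherwise not tested. With 3 or 2 libraries per group small changes stayed below detection.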
